A study of Mus musculus with 18 samples.

Results

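The genes described are the ubiquitin-specific proteases of the mouse, taken as all 51 genes of 14411 in the deposited tables whose symbol is Usp followed by a digit. Of these, 49 were among the 13104 genes of the table of embryonic stem cells (ESCs), 50 were among the 13717 genes of the table of epiblast-like cells (EpiLCs), and 48 were in each of the tables. Usp50 was listed in ESCs alone, and Usp17lb and Usp17le in EpiLCs alone. The annotation holds 59 symbols of this form. The other 8 (Usp9y, Usp18, Usp17la, Usp17lc, Usp17ld, a Usp17le pseudogene and the non-coding Usp46os1 and Usp46os2) have no row in either table and were not analysed here.

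The study exposed mouse ESCs, and the EpiLCs derived from them, to Δ9-THC, the main psychoactive compound of cannabis, and sequenced their RNA. The cells were of the BVSC background, which carries the reporters Blimp1::mVenus and Stella::ECFP, and all 4 groups shared it. The study describes its ESCs as female, its female clone being H18, and names its experiments in male ESCs (clone R8) as such, while the labels of these libraries give no sex. There were 3 libraries in each of 4 groups, ESCs in vehicle, ESCs in 100 nM Δ9-THC, EpiLCs in vehicle and EpiLCs in 100 nM Δ9-THC. The vehicle was ethanol, ESCs were kept with LIF and the 2i inhibitors, and EpiLCs were induced with activin A, bFGF and serum replacement. The exposure was continuous. The labels call the 3 libraries of a group biological replicates without saying what was repeated. The p-values thus measure the spread between these libraries of one cell line, as left by the authors' adjustment for batches.

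Ubiquitin-specific proteases are the largest family of deubiquitinases. They are cysteine proteases that cut ubiquitin from proteins, or take apart ubiquitin chains, and so set how long a protein lasts, where it goes and which partners it binds. In pluripotent cells, members act on histones H2A and H2B, on receptors of signalling pathways, on DNA repair proteins and on regulators of p53. The genes range from compact ones to some with very long coding sequences, and their transcript lengths differ accordingly.

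The family is held together by the box around its catalytic cysteine. The 30 bases of coding sequence around this codon are shown for the members with the largest coding sequences, the most abundant member, a member called in ESCs, and the histone proteases Usp16 and Usp22, so that the shared core can be seen beside the differences. The capitals mark the codon of the cysteine, and each sequence reads 5′ to 3′ along the gene's own strand in the GENCODE annotation of GRCm38.
Usp34: actaaccttggagctactTGTtacttggcc
Usp9x: aaaaatgctggtgctactTGTtacatgaac
Usp24: aggaacggtggcgctactTGTtacatgaat
Usp7: aagaatcagggagcaacgTGTtacatgaat
Usp1: aataaccttggcaacactTGTtatctgaat
Usp22: atcaacctggggaacacgTGTttcatgaac
Usp16: agtaatttggggaatactTGTttcttcaat
In Usp34 these bases lie in exon 43 (plus strand, chr11:23426706-23426735) and the cysteine is residue 1940 of 3582. In Usp9x they lie in exon 31 (chrX:13145201-13145230, plus strand), and in Usp24 in exon 43 (chr4:106406439-106406468, plus strand). The box of Usp7 is in exon 7 (chr16:8707680-8707709, minus strand), that of Usp1 in exon 3 (chr4:98928313-98928342, plus strand), that of Usp22 in exon 5 (chr11:61162953-61162982, minus strand) and that of Usp16 in exon 6 (chr16:87469821-87469850, plus strand). A search of the translated longest coding sequences for asparagine, any residue, glycine, a pair of residues of any kind, cysteine and an aromatic residue found the box in 45 of the 51 members (88.2%) and in 42 of 22052 other genes (0.190%). Usp39, a splicing factor, and Usp6nl, which by its name matches the rule but encodes a GTPase-activating protein of Rab proteins, were without a match, as were Usp21, Usp47, Usp53 and Usp54. A missing match says only that these letters were not in the isoform searched.

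Each library held between 23427551 and 32096698 adjusted counts, of which the Usp genes took 0.547% to 0.574% in the 6 ESC libraries and 0.331% to 0.457% in the 6 EpiLC libraries. A single member had between 16 and 32815 counts in a library, so counting error is largest, relative to the level, at the bottom of this range. In ESCs the adjusted counts of some members, such as Usp33, lay closer together than counting error alone would leave them. A printed SD can thus be below counting error. The labels of the cell types matched their markers: 8 naive pluripotency genes summed to 4205 to 4517 CPM (adjusted counts scaled to a common library size with edgeR) in ESC libraries and to 285 to 332 CPM in EpiLC libraries, while 7 formative and primed genes summed to 151 to 168 CPM and to 1716 to 2081 CPM. Fgf5 and Fgf8 of the latter list were not in the ESC table. Each list of markers of primitive endoderm, mesoderm, neural cells, fibroblasts or trophoblast summed to at most 20.8 CPM in any library, with Gata6, Sox17, Sox7 and Pdgfra in neither table. In bulk RNA, fewer cells of a type and less RNA per cell cannot be told apart. The deposited counts had been adjusted for batches by the authors. In these adjusted counts a vehicle library and the Δ9-THC library of the same number deviated from their group means in opposite directions, with Pearson correlations over genes of -0.987 to -0.977 in ESCs and -0.985 to -0.979 in EpiLCs. The 6 libraries of a cell type were thus not independent of each other. The tests below treat them as independent, so their SEs and p-values can be too small.

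Levels in vehicle were compared between genes as CPM per kb of exon, since a longer transcript yields more reads. The most abundant member per length was Usp7, the protease of Mdm2, p53 and Dnmt1, in each cell type, at 80.0 ± 0.807 CPM per kb (SD, n = 3) in ESCs and 52.6 ± 6.60 CPM per kb in EpiLCs. In ESCs Usp9x, an X-linked protease of Smad4 and Mcl1, followed at 66.6 ± 3.90 CPM per kb and Usp1, which removes ubiquitin from FANCD2 and PCNA, at 59.0 ± 1.09 CPM per kb. In EpiLCs the places after Usp7 went to Usp39, a component of the spliceosome's tri-snRNP, at 47.5 ± 6.23 CPM per kb and to Usp1 at 46.8 ± 5.48 CPM per kb. These 3 EpiLC levels lay within 1 SD of each other. At the other end, Usp29, an imprinted gene next to Peg3, was at 0.280 and 0.583 CPM per kb, and Usp50 was at 0.354 CPM per kb in ESCs. Over 10 CPM per kb were 21 of 49 members in ESCs and 17 of 50 in EpiLCs, and the median member was at 7.70 and 6.40 CPM per kb, beside 5.41 and 4.68 CPM per kb for all genes.

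The order of levels was much alike in the cell types, with a Spearman rho of 0.895 between vehicle CPM per kb in ESCs and in EpiLCs over the 48 shared members, which differ in length. The cell types were in separately adjusted tables, so their levels are set side by side with no test. The vehicle CPM was lower in EpiLCs for 32 members and higher for 16, with a median log2 difference of -0.26. For 5 members the log2 differences (EpiLC over ESC) were under -1, namely Usp9x (-2.03), Usp33 (-1.63), which acts on recycling receptors, Usp46 (-1.50), a partner of the activator Wdr48, Usp48 (-1.24) and Usp45 (-1.05). The 3 differences over 1 were those of Usp44 (2.83), a protease of histone H2B and of the mitotic checkpoint, Usp26 (1.37), an X-linked gene best known from the testis, and Usp29 (1.06).

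**Figure D1:**
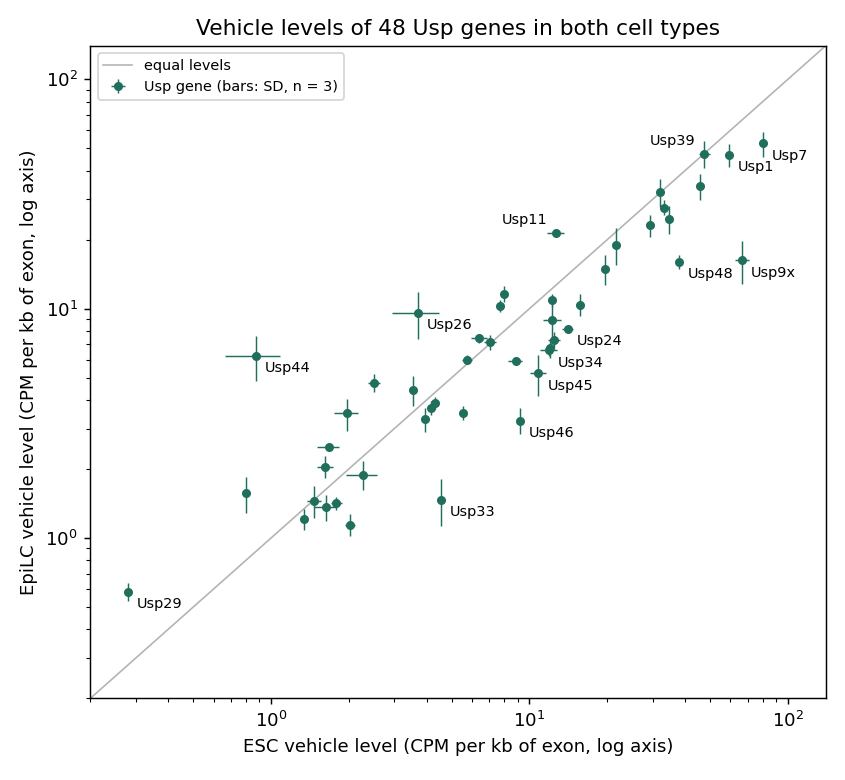
Vehicle levels of the 48 Usp genes listed in each cell type, as CPM per kb of exon in ESCs (horizontal, log axis) and EpiLCs (vertical, log axis). Points are means of 3 libraries, bars are SDs and the line marks equal levels. Usp9x lies furthest below the line and Usp44 furthest above it.

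After Δ9-THC, 3 of 49 members passed the test in ESCs (edgeR quasi-likelihood test, Benjamini-Hochberg adjusted p at most 0.05), a share of 6.12%, close to the 6.91% of all genes tested. Usp1 and Usp14 rose, beside 3.37% of all genes in that direction, and Usp21 fell, beside 3.55%. In EpiLCs 0 of 50 members passed edgeR's test, as did 0% of all genes, while at an unadjusted p under 0.05 there were 10 members with a higher level and 0 with a lower one. Among all genes of EpiLCs these shares were 8.28% and 6.8%, so the 20% of members with a higher level stood above the background share. The corresponding counts in ESCs were 10 higher and 6 lower, 20.4% and 12.2% of members, beside 14.9% and 13.8% of all genes. DESeq2 called 3 of the 44 members with an adjusted p in ESCs (Usp1, Usp14 and Usp26), a share of 6.82% beside 7.68% of all such genes, and 1 of 50 in EpiLCs (Usp34), 2% beside 0.518%.

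The direction was uneven in EpiLCs. There 40 of 50 members (80%) had a log2 fold change above 0, beside 50.7% of all genes, and the median was 0.13 for members and 0.0031 for all genes. In ESCs 29 of 49 members (59.2%) were above 0, beside 51.1% of all genes, with medians of 0.032 and 0.0041. The 3 Δ9-THC libraries lay wholly above the 3 vehicle libraries for 11 members in EpiLCs (22%, beside 11.2% of all genes) and wholly below for 0 (beside 10.6%). In ESCs the libraries did not overlap for 11 members with a higher level (22.4%, beside 16.7%) and 7 with a lower one (14.3%, beside 15.9%). The standard error of a member's log2 fold change was 0.049 in the median in ESCs and 0.12 in EpiLCs, so a shift of the same size was measured less precisely in EpiLCs. Some sums of pluripotency markers separated with exposure as well. In EpiLCs the 8 naive genes summed to 285 to 305 CPM in vehicle and 308 to 332 CPM in Δ9-THC libraries, and Pou5f1 and Sox2, which naive and primed cells share, to 448 to 474 CPM in vehicle and 406 to 435 CPM in Δ9-THC libraries, without overlap in either list. In ESCs the sums of Pou5f1 and Sox2 did not overlap either, at 725 to 783 CPM in vehicle and 666 to 716 CPM in Δ9-THC libraries. The other sums overlapped. The naive genes in ESCs summed to 4233 to 4517 CPM in vehicle and 4205 to 4478 CPM in Δ9-THC libraries. The formative and primed genes summed to 155 to 168 CPM and 151 to 163 CPM in ESCs, where 1 of them was called. In EpiLCs they summed to 1716 to 2049 CPM and 1747 to 2081 CPM. No gene of the naive and shared lists was called in either cell type, and the part of these markers in the members' shifts was not tested.

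**Figure D2:**
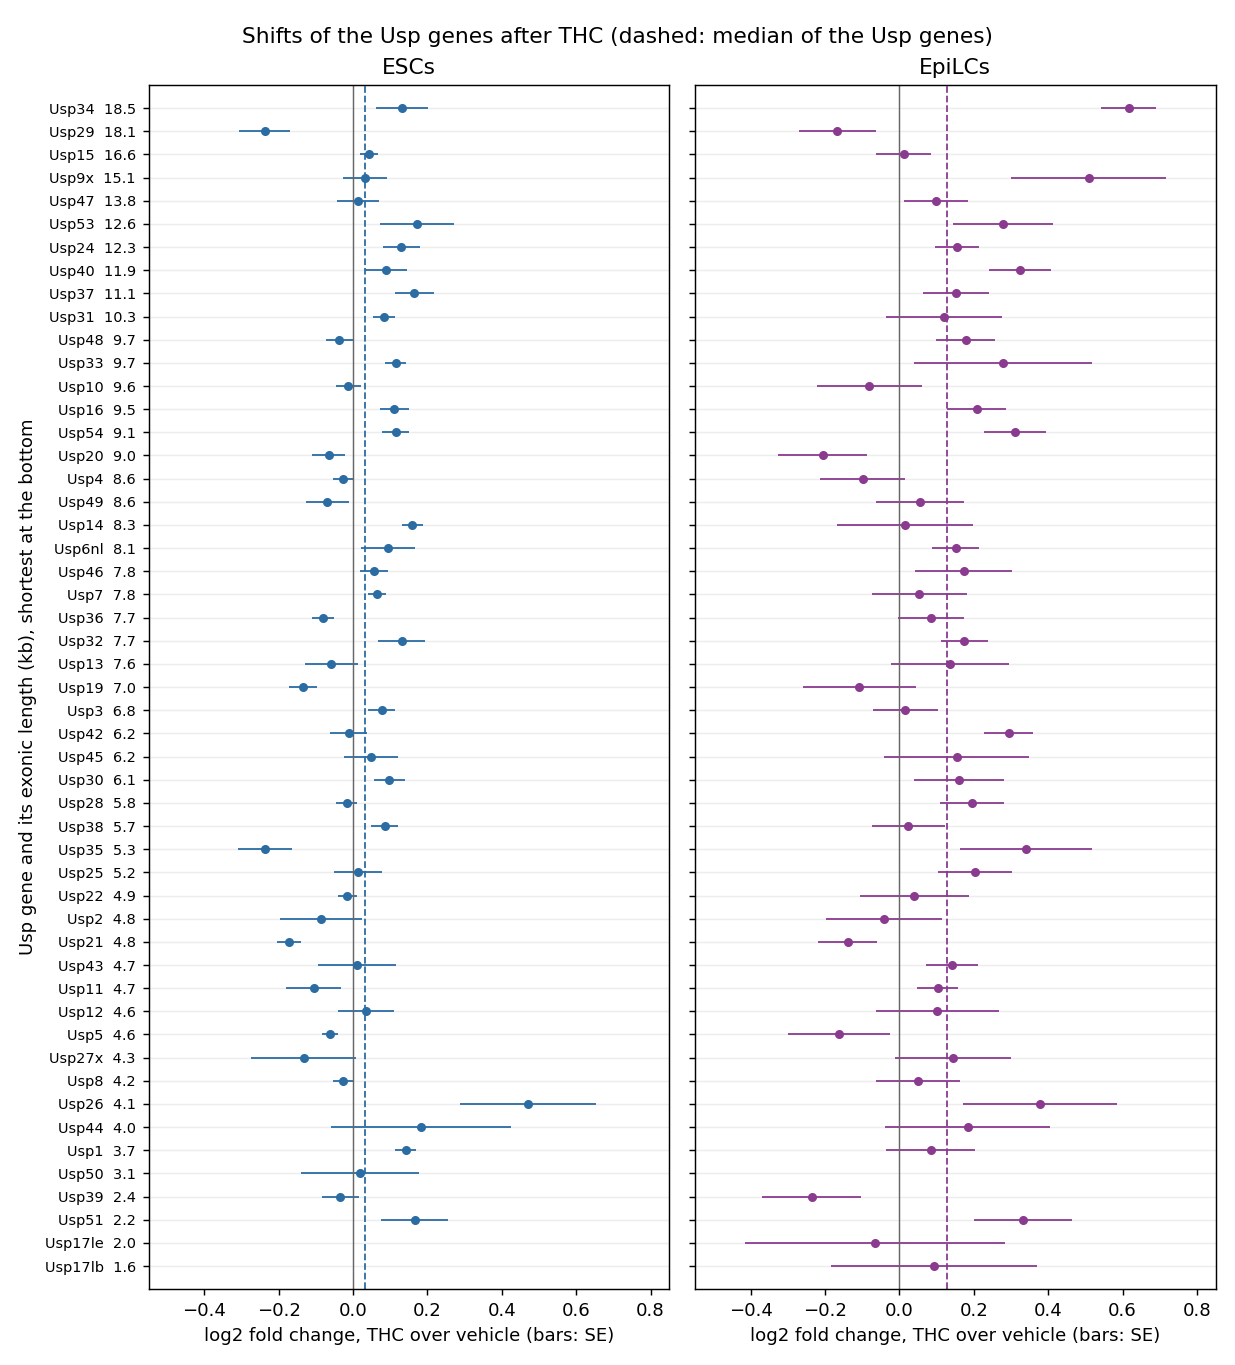
Log2 fold change of each Usp gene, Δ9-THC over vehicle, in ESCs (left) and EpiLCs (right), with bars of 1 SE and 3 libraries per group. Genes are ordered from the shortest (bottom) to the longest (top) exonic length in kb, and the dashed lines mark the medians of the Usp genes, 0.032 and 0.13. In EpiLCs 40 of 50 points lie to the right of 0, with Usp34 furthest.

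The members with the largest coding sequences were Usp34, Usp9x and Usp24. Usp34, known for the turnover of axin in Wnt signalling and for the response to DNA breaks, spans chr11:23306895-23490560, plus strand, and with 18.5 kb of exon and 10.7 kb of coding sequence it was the longest of the family on both measures. In ESCs it was measured at 232, 224 and 202 CPM in vehicle libraries and 226, 235 and 260.1 CPM in Δ9-THC libraries. The groups overlapped, and the log2 fold change was 0.13 ± 0.070 (SE, n = 3 per group, edgeR adjusted p = 0.265).

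In EpiLCs Usp34 was measured at 129, 122 and 114 CPM in vehicle libraries and 175, 187 and 197 CPM in Δ9-THC libraries. Every Δ9-THC library was above every vehicle library, and its p-value was the smallest of the family. The means were 121 ± 7.19 CPM in vehicle and 186 ± 11.0 CPM in Δ9-THC (SD, n = 3), a fold of 1.53 and a log2 fold change of 0.62 ± 0.074. By p-value it was at rank 6 of 13717 genes (unadjusted p = 9.3e-05 in edgeR's model), and by log2 fold change at rank 135, yet its Benjamini-Hochberg adjusted p was 0.144 and it was not called. In a fit of all 12 libraries, which share 1 estimate of the spread, its adjusted p was 0.00881, and with DESeq2 it was 1.2e-06. It was 0.339 to 0.452 in edgeR's test when 1 library was left out. With the replicate number as a block the log2 fold change was 0.62 ± 0.15, and the adjusted p of 0.999 was that of all 50 members in this fit. With offsets that remove each library's trend with GC content and length, the log2 fold change was 0.41 ± 0.057 (edgeR adjusted p = 0.212). Exons of Usp34 overlap Ahsa2 over 11.6% of their length, and reads that fell in such overlaps were left unassigned in counting without strand.

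Usp9x (chrX:13071498-13173328, plus strand) was measured in ESCs at 999, 1063 and 946 CPM in vehicle libraries and 1026, 963 and 1088 CPM in Δ9-THC libraries, and in EpiLCs at 245, 296 and 194 CPM in vehicle libraries and 351, 269 and 425 CPM in Δ9-THC libraries. The groups overlapped in each cell type, and the EpiLC level was lower than the ESC level in every library. Its log2 fold change was 0.032 ± 0.059 in ESCs and 0.51 ± 0.21 in EpiLCs (edgeR adjusted p = 0.76 and 0.324). The sign in ESCs was not stable, as it turned with the GC and length offsets (-0.10). Usp24 (chr4:106316213-106441322, plus strand), a protease of Ddb2 and p53, had log2 fold changes of 0.13 ± 0.049 and 0.15 ± 0.059 (adjusted p = 0.144 and 0.298), and its EpiLC libraries did not overlap, with 101 ± 3.80 CPM in vehicle and 112 ± 3.95 CPM in Δ9-THC.

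**Figure D3:**
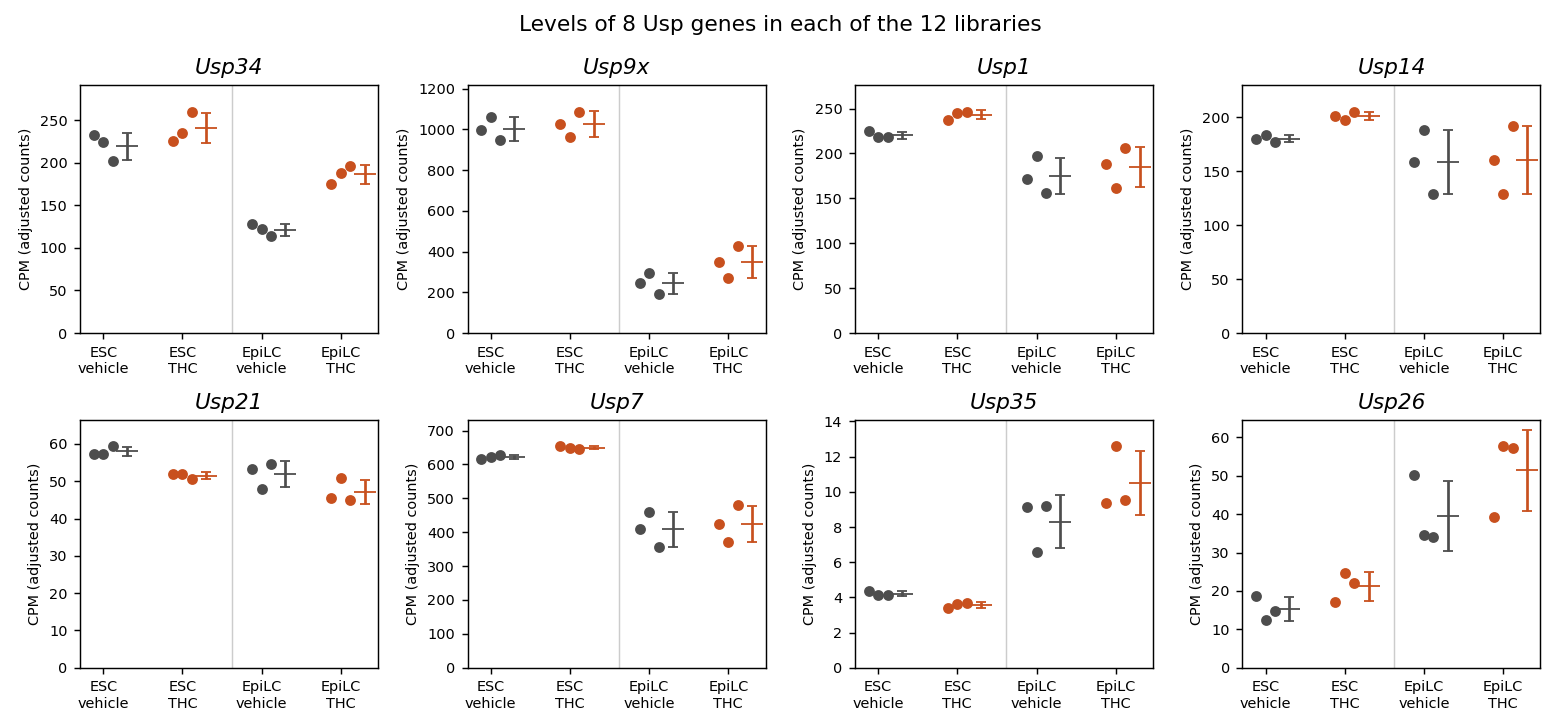
CPM, from adjusted counts, of 8 Usp genes in each of the 12 libraries, by cell type and exposure. Points are libraries, and the dash with bars beside them is the mean ± SD (n = 3); each panel has its own linear axis from 0. Usp34 and Usp35 are separated between vehicle and Δ9-THC in EpiLCs, and Usp1, Usp14, Usp21, Usp7 and Usp35 are separated in ESCs.

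The members of DNA repair and the cell cycle included Usp7, the most abundant of the family per length. Usp1 (chr4:98923810-98935543, plus strand) rose in ESCs, where it was measured at 225, 218 and 218 CPM in vehicle libraries and 237, 245 and 247 CPM in Δ9-THC libraries. No Δ9-THC library was as low as any vehicle library, and the log2 fold change was 0.14 ± 0.028 (edgeR adjusted p = 0.0414). In EpiLCs, at 172, 197 and 156 CPM in vehicle libraries and 189, 161 and 206 CPM in Δ9-THC libraries, the groups overlapped (0.084 ± 0.12, adjusted p = 0.785). Usp7 was at 615, 621 and 627 CPM in vehicle libraries and 654, 649 and 645 CPM in Δ9-THC libraries in ESCs, again without overlap. The shift was small, 0.064 ± 0.024, and did not pass the test (adjusted p = 0.139). In EpiLCs Usp7 was at 409, 459.6 and 357 CPM in vehicle libraries and 423, 370.4 and 479 CPM in Δ9-THC libraries, and the groups overlapped throughout (0.054 ± 0.13). Of the other 5 of this group, Usp37, which stabilises cyclin A, had log2 fold changes of 0.16 ± 0.053 in ESCs and 0.15 ± 0.089 in EpiLCs, and Usp28, a partner of 53BP1, -0.017 ± 0.028 and 0.20 ± 0.085. Those of Usp10, Usp12 and Usp46 lay between -0.081 and 0.17 in the cell types. No member of this group other than Usp1 was called.

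Among the 8 proteases of histone ubiquitin, Usp21, which acts on H2A and on the pluripotency factor Nanog, fell in ESCs. It lies at chr1:171281945-171287991, minus strand, and was measured at 57.3, 57.3 and 59.4 CPM in vehicle libraries and 51.9, 52.0 and 50.5 CPM in Δ9-THC libraries, with every Δ9-THC library under every vehicle library (-0.17 ± 0.032, edgeR adjusted p = 0.037). In EpiLCs it was at 53.2, 48.1 and 54.6 CPM in vehicle libraries and 45.6, 50.9 and 44.9 CPM in Δ9-THC libraries. There the groups overlapped, and the log2 fold change was -0.14 ± 0.080 (adjusted p = 0.46).

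Usp16, the H2A protease of mitosis, was at 40.0, 39.9 and 42.1 CPM in vehicle libraries and 44.5, 44.7 and 42.6 CPM in Δ9-THC libraries in ESCs, without overlap. Its log2 fold change was 0.11 ± 0.039 in ESCs (adjusted p = 0.12), and with the GC and length offsets it was -0.050. In EpiLCs it was at 39.5, 35.4 and 35.3 CPM in vehicle libraries and 39.1, 44.3 and 43.9 CPM in Δ9-THC libraries, where the first vehicle library overlapped the Δ9-THC libraries (0.21 ± 0.079, adjusted p = 0.297). Usp22, the H2B protease of the SAGA complex, was at 156, 154 and 158 CPM in vehicle libraries and 154, 156 and 153 CPM in Δ9-THC libraries in ESCs and at 148, 183 and 142 CPM in vehicle libraries and 173, 133 and 179 CPM in Δ9-THC libraries in EpiLCs. The groups overlapped in each cell type, with log2 fold changes of -0.015 ± 0.024 and 0.040 ± 0.15. Usp44 was at 2.62, 3.65 and 4.31 CPM in vehicle libraries and 5.11, 3.81 and 3.02 CPM in Δ9-THC libraries in ESCs and at 24.5, 31.0 and 19.8 CPM in vehicle libraries and 29.5, 21.2 and 34.9 CPM in Δ9-THC libraries in EpiLCs. Its groups overlapped too, at log2 fold changes of 0.18 ± 0.24 and 0.18 ± 0.22, and the difference between the cell types was far wider than that between exposures. Usp27x and Usp51, X-linked relatives of Usp22 that can take its place in the module, had log2 fold changes of -0.13 ± 0.14 and 0.17 ± 0.090 in ESCs and 0.14 ± 0.16 and 0.33 ± 0.13 in EpiLCs. Reads from the near-identical stretches of Usp22, Usp27x and Usp51 could have been lost from these counts. Usp3 and Usp49 were between -0.069 and 0.077, and 52.3% of the exons of Usp49 overlap other genes.

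Of the proteases of the proteasome and of free ubiquitin chains, Usp14, the reversible subunit that trims ubiquitin at the proteasome's entry, rose in ESCs. It lies on chromosome 18 and was measured at 179.8, 184 and 177 CPM in vehicle libraries and 201, 197 and 205 CPM in Δ9-THC libraries. The groups did not overlap, and the log2 fold change was 0.16 ± 0.028 (edgeR adjusted p = 0.0331), while 26.0% of its exons overlap other genes. In EpiLCs it was at 159, 188 and 129 CPM in vehicle libraries and 161, 129 and 192 CPM in Δ9-THC libraries, with a spread far wider than the difference (0.016 ± 0.18, adjusted p = 0.977). Usp5, which takes apart unanchored chains, did not overlap in ESCs, at 211 ± 0.703 CPM in vehicle and 202 ± 0.124 CPM in Δ9-THC, with a log2 fold change of -0.063 ± 0.022 (adjusted p = 0.121). Its relative Usp13 was at -0.058 ± 0.070 in ESCs and 0.14 ± 0.16 in EpiLCs.

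The 3 ESC calls were close to the threshold, and their shifts were small. Beyond 0.5 on the log2 scale in either direction were 0 members in ESCs and 2 in EpiLCs, Usp34 and Usp9x. The share of all genes beyond this size was not worked out. Among all 13717 genes of EpiLCs, Usp34 was at rank 135 by log2 fold change. With the replicate number as a block, edgeR's adjusted p was 0.438 for Usp1, 0.425 for Usp14 and 0.443 for Usp21, at log2 fold changes of 0.14, 0.16 and -0.17. With the GC and length offsets the log2 fold changes were 0.061, 0.016 and -0.051, and none of the 3 passed (adjusted p = 0.298, 0.869 and 0.445). The GC content of their longest transcripts was 44.1%, 39.2% and 57.8%, and the member that fell had the highest of the 3.

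At membranes and organelles, Usp33 in ESCs had adjusted counts closer together than counting error, at 44.0 ± 0.286 CPM in vehicle and 47.7 ± 0.103 CPM in Δ9-THC. Its log2 fold change was 0.11 ± 0.028 (edgeR adjusted p = 0.0589). Usp19, which has an isoform anchored in the endoplasmic reticulum, had 138 ± 4.33 CPM and 126 ± 4.39 CPM without overlap (-0.14 ± 0.038, adjusted p = 0.0755). Neither passed the test, and with the GC and length offsets the log2 fold changes were 0.036 for Usp33 and -0.0094 for Usp19. Usp20, a relative of Usp33, was at 11.9, 12.1 and 12.3 CPM in vehicle libraries and 11.7, 11.5 and 11.4 CPM in Δ9-THC libraries in ESCs. All 3 Δ9-THC libraries were below the vehicle libraries, at a log2 fold change of -0.066 ± 0.044 (adjusted p = 0.517), which was 0.040 with the GC and length offsets. DESeq2 gave it an SE of 0.11. In EpiLCs Usp20 was at 10.6, 9.96 and 12.3 CPM in vehicle libraries and 9.67, 10.3 and 8.37 CPM in Δ9-THC libraries, with overlap (-0.21 ± 0.12). The log2 fold changes of Usp8 of the endosome, Usp30 of the mitochondrial outer membrane and Usp32 were -0.027, 0.10 and 0.13 in ESCs and 0.049, 0.16 and 0.17 in EpiLCs. The libraries of Usp32 did not overlap in either cell type, and those of Usp30 did not overlap in ESCs.

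The paralogs Usp4, Usp11 and Usp15 had small shifts. Usp15, with 16.6 kb of exon among the longest, was at 129, 127 and 127 CPM in vehicle libraries and 129, 133 and 133 CPM in Δ9-THC libraries in ESCs and at 177, 177 and 159.7 CPM in vehicle libraries and 166, 168 and 184 CPM in Δ9-THC libraries in EpiLCs. Its log2 fold changes were 0.043 ± 0.025 and 0.011 ± 0.073, near 0 in each cell type, and the ESC libraries did not overlap, although the highest vehicle and the lowest Δ9-THC library were equal after rounding. Usp11 was at -0.11 ± 0.074 in ESCs and 0.10 ± 0.055 in EpiLCs, and Usp4 at -0.026 ± 0.027 and -0.10 ± 0.11.

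Members with no protease activity, or long counted among the inactive ones, had values on both sides of 0. Usp39 was at 110.0, 117 and 121 CPM in vehicle libraries and 119, 112 and 109 CPM in Δ9-THC libraries in ESCs and at 114, 132 and 102 CPM in vehicle libraries and 101, 84.0 and 111 CPM in Δ9-THC libraries in EpiLCs. The groups overlapped in each cell type, and the EpiLC log2 fold change of -0.24 ± 0.13 was the lowest of the family there (edgeR adjusted p = 0.452). Usp53, of cell junctions, was at 22.5, 21.0 and 18.3 CPM in vehicle libraries and 21.1, 22.8 and 25.9 CPM in Δ9-THC libraries in ESCs and at 16.5, 19.7 and 15.4 CPM in vehicle libraries and 21.8, 17.7 and 23.1 CPM in Δ9-THC libraries in EpiLCs. It overlapped in each, at 0.17 ± 0.10 and 0.28 ± 0.14. Usp54 did not overlap in either cell type, with log2 fold changes of 0.11 ± 0.036 (adjusted p = 0.0986) and 0.31 ± 0.082 (adjusted p = 0.204), and Usp6nl was at 0.094 ± 0.074 and 0.15 ± 0.062.

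Genes best known from germ cells covered a wide range of levels. Usp26 was at 18.7, 12.4 and 14.9 CPM in vehicle libraries and 17.0, 24.6 and 22.0 CPM in Δ9-THC libraries in ESCs and at 50.1, 34.6 and 34.0 CPM in vehicle libraries and 39.3, 57.7 and 57.4 CPM in Δ9-THC libraries in EpiLCs. The groups overlapped in each cell type, and the log2 fold changes of 0.47 ± 0.18 (edgeR adjusted p = 0.151) and 0.38 ± 0.21 (adjusted p = 0.444) were at ranks 1 and 3 among the members. DESeq2 gave an adjusted p of 0.0375 for Usp26 in ESCs. Usp29, with 18.1 kb of exon nearly as long as Usp34, was at 4.93, 5.25 and 4.98 CPM in vehicle libraries and 4.40, 4.12 and 4.36 CPM in Δ9-THC libraries in ESCs, where the Δ9-THC libraries were all lower (-0.24 ± 0.069, adjusted p = 0.112). In EpiLCs it was at 11.3, 10.8 and 9.52 CPM in vehicle libraries and 8.69, 9.21 and 10.3 CPM in Δ9-THC libraries, with overlap (-0.17 ± 0.10). Usp50, Usp17lb and Usp17le were at the lowest CPM among the members of their tables, with log2 fold changes of 0.019 ± 0.16 in ESCs and 0.092 ± 0.28 and -0.065 ± 0.35 in EpiLCs, and the Usp17l copies are near-identical, so that their reads are uncertain.

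Usp35, a relative of Usp38, was the member whose libraries separated in opposite directions. In ESCs it was at 4.35, 4.16 and 4.13 CPM in vehicle libraries and 3.39, 3.65 and 3.69 CPM in Δ9-THC libraries, all lower after Δ9-THC (-0.24 ± 0.074, edgeR adjusted p = 0.148), and in EpiLCs at 9.14, 6.60 and 9.21 CPM in vehicle libraries and 9.39, 12.6 and 9.51 CPM in Δ9-THC libraries, all higher (0.34 ± 0.18, adjusted p = 0.421). The difference between the cell types was 0.59 ± 0.22 in the interaction test, with an adjusted p of 0.257. No member passed this test (0 of 48, beside 0.0322% of all genes), and 8 were under an unadjusted p of 0.05 (16.7%, beside 13.7%), namely Usp11, Usp28, Usp34, Usp35, Usp40, Usp42, Usp48 and Usp54. All 8 had the higher log2 fold change in EpiLCs, where 40 of 50 members were above 0. For all genes under that p the directions were not counted apart, so the direction of the 8 has no background share. Usp34 had the smallest p of the 8, at a difference of 0.50 ± 0.11 (adjusted p = 0.0806). DESeq2 called Usp34 for this difference (1 of 48 members, 2.08%, beside 1.07% of all genes). Usp42, whose EpiLC libraries were at 37.4 ± 1.76 CPM and 45.8 ± 2.05 CPM without overlap, followed at 0.32 ± 0.088 (adjusted p = 0.14).

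The remaining members had small shifts in ESCs and mostly higher levels in EpiLCs after Δ9-THC, where 11 of the 12 genes outside the role groups had a log2 fold change above 0. Usp40 and Usp42 were at 0.32 ± 0.084 and 0.29 ± 0.066 in EpiLCs (edgeR adjusted p = 0.202 and 0.172) against 0.088 ± 0.056 and -0.012 ± 0.049 in ESCs. In the fit of all 12 libraries 4 of 48 members passed in EpiLCs (Usp34, Usp40, Usp42 and Usp54), a share of 8.33% beside 3.31% of all genes in that fit. In ESCs 0 members passed it, and the share of all genes there was not worked out. Usp47, which acts in base excision repair, was at 91.4, 102 and 97.0 CPM in vehicle libraries and 103, 92.1 and 98.2 CPM in Δ9-THC libraries in ESCs and at 96.3, 107 and 92.4 CPM in vehicle libraries and 108, 96.5 and 112 CPM in Δ9-THC libraries in EpiLCs. Both comparisons overlapped, with log2 fold changes of 0.013 ± 0.057 and 0.10 ± 0.086, although its 13.8 kb of exon made it the fifth longest member.

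The shifts were then set against gene length. Among all genes of EpiLCs the log2 fold change was higher with greater exonic length, from a median of -0.082 in the shortest of 10 equal length classes to 0.15 in the longest, with a Spearman rho of 0.34 over 13698 genes. Over the 50 members the rho was 0.17, and without Usp34 0.12, lower values than over all genes. With coding length it was 0.33 over members and 0.27 over all genes. In ESCs the rho with exonic length was 0.14 over 49 members and 0.060 over all genes. These correlations are descriptions across genes, which share libraries and base composition and are not independent.

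With the members split into 3 classes by exonic length, the median log2 fold change of members in EpiLCs was 0.088 in the shortest (1.56 to 4.89 kb, 16 genes), 0.14 in the middle (5.20 to 8.63 kb, 18 genes) and 0.17 in the longest (9.02 to 18.5 kb, 16 genes). All genes of the same length ranges had medians of -0.044, 0.048 and 0.13. The members' medians were above those of all genes in each range, by the widest margin among the short ones. In ESCs the medians of the 3 classes were -0.0021, 0.049 and 0.085 for members and -0.0083, 0.011 and 0.033 for all genes. GC content moved with length, at a median of 50.3% in the shortest and 43.8% in the longest class of EpiLC members. In ESCs the members' log2 fold change had a rho of -0.63 with GC content (-0.54 over all genes), and in EpiLCs -0.42 (-0.30 over all genes). Once the GC and length trends of each library were removed, 31 of 50 members (62%) were above 0 in EpiLCs, beside 46.1% of all genes, with medians of 0.048 and -0.016.

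**Figure D4:**
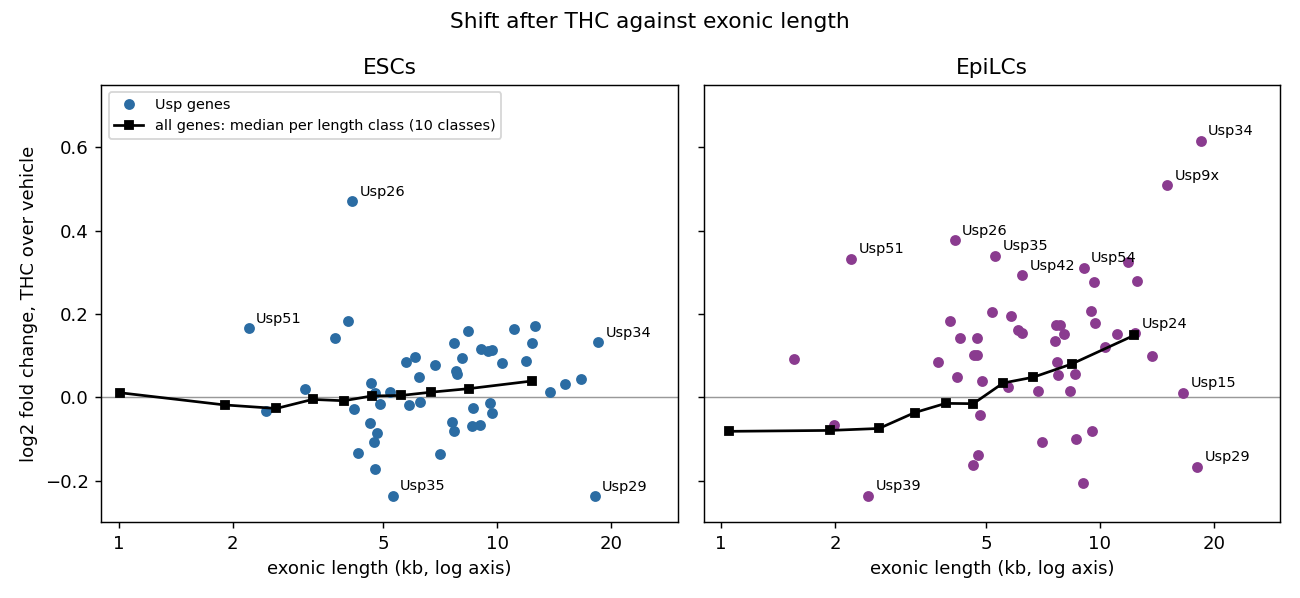
Log2 fold change, Δ9-THC over vehicle, of the Usp genes against exonic length in kb (log axis) in ESCs (left) and EpiLCs (right). Squares joined by a line are medians of all genes in 10 equal classes by length. In EpiLCs the line climbs from -0.082 to 0.15, Usp34 and Usp9x lie far above its end, and Usp15 and Usp29, of like length, lie below it.

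Usp34 was near the top of the long genes in EpiLCs. Of 352 genes with at least 15.1 kb of exon, whose median log2 fold change was 0.19 and of which 314 were above 0, it was at rank 2, and of 178 genes with at least 7.66 kb of coding sequence, with a median of 0.22, at rank 3. In ESCs it was at rank 97 of 335 and 33 of 161 by the same limits. Usp29 and Usp15, next to Usp34 in exonic length, had EpiLC log2 fold changes of -0.17 and 0.011 against its 0.62. Their coding sequences were 2.61 and 2.94 kb long, beside 10.7 kb for Usp34.

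Other genes of the pathway, 57 genes of the other deubiquitinase families, the partners of ubiquitin-specific proteases, ubiquitin itself and its activating enzymes, were examined beside the family, and 55 were tested. In ESCs 5 rose and 1 fell, 10.9% together, beside 6.91% of all genes (3.37% higher and 3.55% lower). Among the 38 other deubiquitinases, those that rose were Otud4 (0.28 ± 0.053, adjusted p = 0.038) and Otud6b (0.16 ± 0.033, adjusted p = 0.0422) of the ovarian tumour family, Brcc3 (0.21 ± 0.043, adjusted p = 0.042), which cuts chains of one linkage type, and Mindy3 (0.19 ± 0.029, adjusted p = 0.0301), all by edgeR's test with Benjamini-Hochberg adjustment. Uba6, an activating enzyme of ubiquitin, rose as well (0.23 ± 0.042, adjusted p = 0.0357). Dmwd, a partner of Usp12 and Usp46, fell (-0.23 ± 0.043, adjusted p = 0.0384). These calls come from the main fit alone. They were not followed under the replicate block, the GC and length offsets or with a library left out. The called Usp genes, at adjusted p-values of like size, were not called under those alternatives. In EpiLCs 0 of 55 passed and 27 were above 0 (49.1%, beside 50.7% of all genes), at a median of -0.0030. For the Usp genes these values were 40 of 50 and 0.13. The lists within the pool differed in EpiLCs. Of the 38 other deubiquitinases 21 were above 0 (55.3%). Among these were 11 of 15 genes of the ovarian tumour family (73.3%), 0 of 4 ubiquitin C-terminal hydrolases and 2 of 8 genes of the JAMM family. Of the partners 4 of 11 were above 0, and of the ubiquitin genes 1 of 4. The lists were not matched to the Usp genes in length or GC content.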

How the data were processed

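RNA was measured in 12 poly(A) libraries. The authors aligned the reads with STAR and kept those that mapped once. Per-gene counting was done with HTSeq (union mode, strand not used), genes of low count were removed, and ComBat-seq was applied for batches that are not given in the sources used here. The deposited values are these adjusted counts, in whole numbers and in 1 table per cell type. Libraries were matched to columns by label. PGCLC libraries were not analysed here.

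Δ9-THC was compared with vehicle in each cell type by the quasi-likelihood test of edgeR 4.0.16 (R 4.3.3) after TMM scaling, on genes with more than 10 counts in total, with Benjamini-Hochberg adjustment over all genes and a threshold of 0.05. An SE was taken as the log2 fold change over the square root of F. For some members, of low and of higher count, it was well below the SE of DESeq2, so it can overstate precision. In ESCs the SEs of edgeR and DESeq2 were 0.044 and 0.11 for Usp20, 0.069 and 0.17 for Usp29, and 0.074 and 0.19 for Usp35. For the genes called there they were 0.028 and 0.046 (Usp1), 0.028 and 0.047 (Usp14), and 0.032 and 0.062 (Usp21). For Usp26 they were 0.18 and 0.15. The cell types were compared by the interaction in a model of 12 libraries. The offsets were natural splines with 5 degrees of freedom on GC content and length, fitted to log2 CPM with a prior count of 2. Both edgeR and DESeq2 were checked on simulated data with known changes. There DESeq2 made a larger share of false calls than edgeR in EpiLCs and a smaller one in ESCs. The simulated libraries were independent of each other, unlike the deposited ones. This check therefore does not give the share of false calls in the deposited data. Alternatives were RLE size factors, no filter, 10 counts in every library, DESeq2 1.42.0, the replicate block, all 12 libraries and leaving out each library.

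Gene models came from GENCODE M21 (GRCm38), matched by identifier for 14390 of 14411 genes and for all 51 Usp genes. Exonic length is the union of exons, coding length that of the longest coding sequence, and GC content that of the longest transcript. Since the paper gives both mm10 and GRCm39 as its genome, the positions serve only to describe genes.

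The Usp genes, their role groups and the other lists were chosen with earlier results of these data known. Values in every library are given for 17 genes, namely Usp34, the called genes, the 3 largest increases and decreases in each cell type, the 5 longest genes, the 3 most abundant per length in each cell type, and Usp16, Usp21 and Usp22.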

Additional observations from a re-analysis of the deposited data

How the results depend on the processing

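The count of 3 Usp genes called in ESCs was the same with RLE size factors, with no filter, with at least 10 counts in every library and with DESeq2, although DESeq2 called Usp26 in place of Usp21. It was 0 with the GC and length offsets, 0 with all 12 libraries in 1 fit and 0 whenever 1 of the 6 libraries was left out, at edgeR adjusted p-values of 0.0721 to 0.145 for the 3 genes. For these fits the share of all genes called in ESCs was not worked out, so the counts of 0 describe the Usp genes alone. In EpiLCs the count of 0 became 1 with DESeq2 and 4 with all 12 libraries, and for the difference between cell types it became 1 with DESeq2. The median log2 fold change in ESCs was -0.0055 to 0.056 when 1 library was left out, and it was below 0 without vehicle replicate 3 and without Δ9-THC replicate 3. In EpiLCs it stayed between 0.10 and 0.16.

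The rho of log2 fold change with exonic length in ESCs ran from 0.10 to 0.18 when 1 library was left out, was 0.29 with genomic span and 0.072 with coding length, and was -0.053 with the GC and length offsets and -0.052 with these and the replicate block. In EpiLCs it was 0.33 with coding length, -0.15 with the offsets and -0.15 with offsets and block. Coding length was added after the data had been seen. The offsets remove such a trend by construction.

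With the replicate number as a block, 0 Usp genes were called in ESCs and 0 in EpiLCs, and 0 in ESCs with block and offsets together. The shares of all genes called in these fits were not worked out, so these counts cannot be read as particular to the Usp genes. Vehicle and Δ9-THC libraries of the same number had deviations correlated at -0.987 to -0.977 in ESCs and -0.985 to -0.979 in EpiLCs. Libraries of different numbers were at 0.37 to 0.60 and 0.22 to 0.70. The correlation of libraries of the same number was thus the strongest in size, and negative. The main tests leave this dependence out, and the fits with the block take the number into account. Deviations in opposite directions widen the spread of the difference between exposures, so the main SEs and p-values can be too small. With the block the SE went from 0.074 to 0.15 for Usp34 in EpiLCs. In ESCs it went from 0.028 to 0.063 for Usp1 and for Usp14, and from 0.032 to 0.077 for Usp21. For Usp26 in ESCs it went from 0.18 to 0.17.

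Of 476 log2 fold changes of single genes under an alternative, 37 had the opposite sign, and none of these was a called value. With the offsets, and with offsets and block, the values in ESCs were -0.056 and -0.056 for Usp15, -0.050 and -0.051 for Usp16, 0.040 and 0.040 for Usp20, 0.0073 and 0.0072 for Usp22, -0.055 and -0.055 for Usp47, -0.10 and -0.10 for Usp9x, and in EpiLCs -0.057 and -0.057 for Usp7, -0.13 and -0.13 for Usp14, -0.19 and -0.19 for Usp15, -0.077 and -0.076 for Usp47. Usp47 in ESCs was -0.0025 with all 12 libraries. When 1 library was left out, the ranges that crossed 0 were -0.021 to 0.35 for Usp44, -0.027 to 0.056 for Usp47, -0.012 to 0.077 for Usp9x in ESCs and -0.0016 to 0.18 for Usp1, -0.045 to 0.15 for Usp7, -0.14 to 0.16 for Usp14, -0.041 to 0.037 for Usp15, -0.044 to 0.16 for Usp22 in EpiLCs. Apart from the offsets, whose construction bears on it, the cause of these changes was not tested. The median SE of a Usp gene's log2 fold change was 0.12 in EpiLCs and 0.049 in ESCs.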
